A study of Homo sapiens with 4 samples.

Results

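The genes described here are 35 members of 11 families of neuronal and synaptic adhesion molecules, out of 51699 distinct gene identifiers in the deposited table and 19023 protein-coding genes. They were taken by gene symbol, and the list was selected on earlier results from the same table, so their levels are given as a description and no member was tested. The study sequenced RNA from HEK293T, a derivative of the human embryonic kidney line HEK293 made to hold SV40 T antigen, of wildtype genotype and crosslinked with formaldehyde. There were 4 libraries, with 2 from the nuclear fraction and 2 from the cytoplasmic fraction. All 4 came from this 1 established line under the same treatment, and the study's methods call the replicates of a fraction independent biological ones. The value used for each gene is the authors' mean of normalized counts, that is, read counts divided by a size factor that puts the libraries on a common scale, averaged over all 4 libraries. It pools both fractions, so it has no SD and no n. How the members divide between the nucleus and the cytoplasm is not analysed here.

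Adhesion molecules of these families sit on the surface of axons, dendrites and synapses, where they bind partners on the facing membrane. Neurexins on the presynaptic side bind neuroligins and LRRTM proteins on the postsynaptic side. Contactins, IgLON proteins, the neural cell adhesion molecules, the DSCAM pair and the CADM proteins belong to the immunoglobulin superfamily, teneurins bind latrophilins, and roundabout receptors answer Slit ligands during axon guidance. Many of these genes are known for introns that dwarf their exons. Such introns matter for a measurement like this, since reads from introns and exons were counted together and a long gene offers far more sequence to count.

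The annotation was compared with the description of the genes as ones with very long introns. All 35 were matched to GENCODE 44 on hg38. Their median span from first to last annotated base was 545 kb, against 32.2 kb for protein-coding genes with a mean above 0. Their median longest intron was 241 kb, against 8.9 kb. The longest intron was over 100 kb in 23 of the 35 members, compared with 4.49% of protein-coding genes, and introns made up over 95% of the span in 26. The description did not hold for all of them. In 7 members no intron reached 20 kb, and 7 spanned less than 50 kb. CNTNAP2, which encodes CASPR2 of the axon next to the node of Ranvier, had the greatest span at 2305.0 kb (chr7:146116002-148420998, plus strand). CADM2, a synaptic immunoglobulin protein, had the longest single intron at 766.85 kb. At the other end LRRTM2, a postsynaptic neurexin partner, covered 6.4 kb with a single intron of 0.35 kb. Of the 35 members, 8 lay on chromosome 3 and 8 on chromosome 11. The share of all protein-coding genes on these chromosomes was not taken.

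The identity of the cells was checked against marker genes. All 6 renal progenitor transcription factors had a mean normalized count over 50, ranging from 63.1 for PAX2 to 811 for EYA1. None of 7 markers of mature kidney did, and UMOD and AQP2 were listed at 0. Of the neurofilament genes that this line is known to express, NEFL and NEFM were high, with means of 13195 and 16264, and INA had a mean of 163. Of 6 markers of mature neurons, SYT1 at 1703, GAD1 at 163 and RBFOX3 at 59.8 exceeded 50, whereas SNAP25, SLC17A7 and GAD2 lay between 3.41 and 13.7.

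Of the 35 members, 34 were listed above 0 and 21 had a mean normalized count over 50, a minimum that the study applied in its immunoprecipitation comparisons. Across protein-coding genes 63.8% passed the same minimum. Above 500 there were 8 members, of which 6 exceeded 1000, while 13 were listed above 0 but at 50 or less. The median mean of all 35 members, with the 1 listed at 0 included, was 86.1. For 17098 protein-coding genes above 0 the median was 446, and 9 members stood at or above that value. The reads were concentrated in few genes, since the 5 with the highest means held 80.9% of the members' summed mean. That sum was 29591, or 0.15% of the sum over protein-coding genes.

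**Figure D1:**
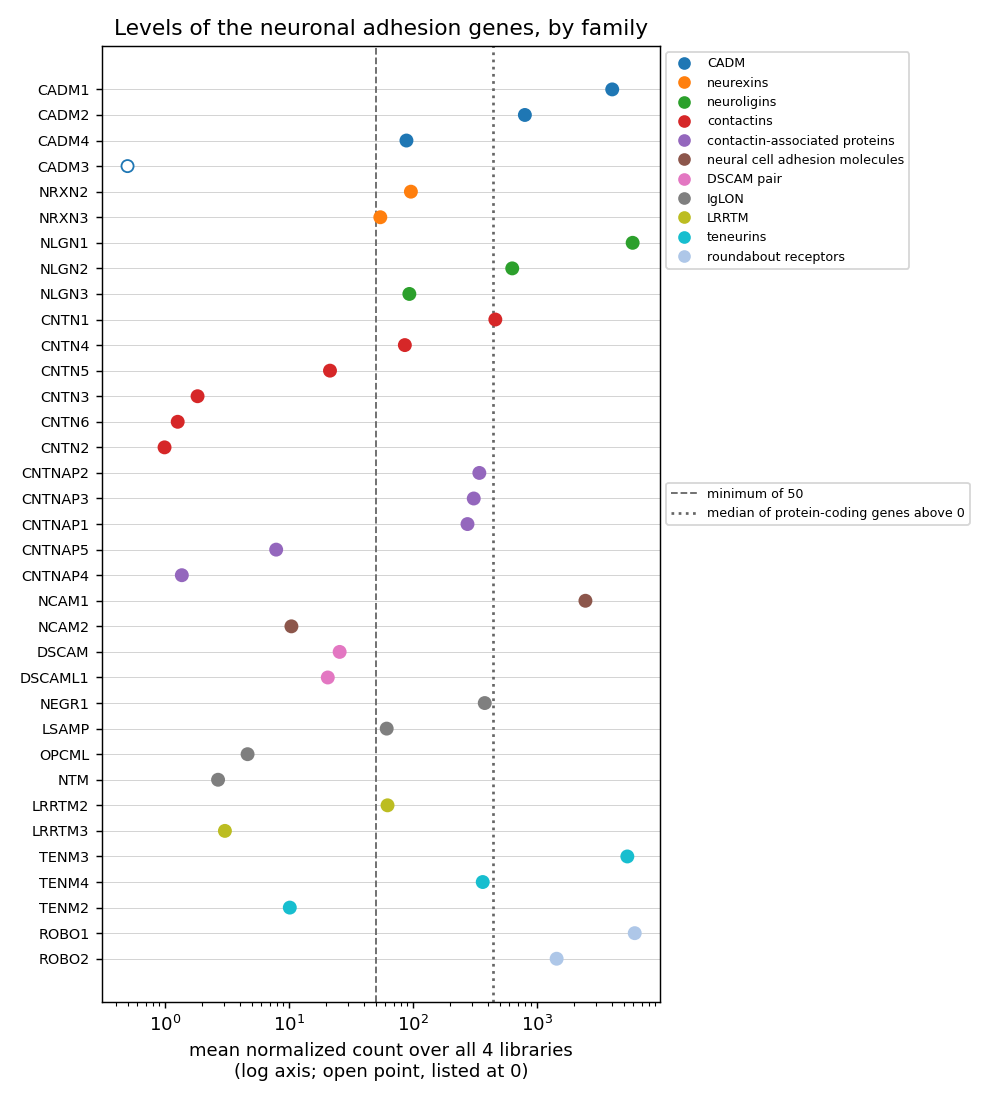
Mean normalized count of each of the 35 genes over all 4 libraries (horizontal log axis), grouped and coloured by family, with no error bars because the deposited value is 1 pooled mean per gene. The dashed line marks 50, which 21 genes exceed, and the dotted line marks the median of protein-coding genes above 0, which is 446. The open point is CADM3, listed at 0 and drawn at the left for display.

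The trans-synaptic pair of neurexins and neuroligins was represented on both sides, at unequal levels. NLGN1, which acts mainly at excitatory synapses, had a mean normalized count of 5913 (chr3:173396284-174294372, plus strand). NLGN2, which acts at inhibitory synapses, had a mean of 632.4 (chr17:7404874-7419860, plus strand). Their order depended on the length by which the mean was divided. Per kb of span, NLGN2 stood at 42.2 and NLGN1 at 6.58. Per kb of exon, NLGN1 stood at 330 and NLGN2 at 111. NLGN1 spans 898.1 kb, of which 98.0% is intron, and NLGN2 spans 15.0 kb, of which 61.9% is intron. NLGN3, X-linked, was lower by either measure, at 3.08 per kb of span and 6.51 per kb of exon. The neurexins were below NLGN3 per kb of span, with 0.823 for NRXN2 and 0.0322 for NRXN3, a gene of 1697.9 kb. Per kb of exon NRXN2, at 6.88, stood beside NLGN3, and NRXN3 was at 3.51. Of the LRRTM genes, LRRTM2 stood at 9.68 per kb of span and LRRTM3 at 0.0174. Other annotated genes on either strand cover 100.0% of the span of each LRRTM gene. How much of these spans was left to count in the authors' annotation was not tested.

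CADM1, also called SynCAM 1, had a mean normalized count of 4047 (chr11:115169218-115504957, minus strand). At 12.1 per kb of span it was at the 52.4th percentile of protein-coding genes, and at 369 per kb of exon at the 86.2th. CADM2 had a mean of 799.5 (chr3:84958989-86074429, plus strand). That mean placed it at the 62.3th percentile before any division by length, but at the 23.8th per kb of span and the 49.6th per kb of exon. CADM4, at 5.07 per kb of span, ranked between CADM1 and CADM2. Per kb of exon it ranked below CADM2, at 39.3 against 80.1. CADM3 was listed at 0 (chr1:159171609-159203313, plus strand), that is, with 0 counts in every library. A count of 0 allows an expected count of up to 3. Other annotated genes cover 79.6% of the CADM3 span on either strand but only 0.27% on the same strand. How much of the span was left to count in the authors' annotation was not tested.

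The teneurins and the roundabout receptors contained further long genes with high means. TENM3, a teneurin of visual circuits, had a mean normalized count of 5358 over 659.0 kb (chr4:182143987-182803024, plus strand). It stood at 8.13 per kb of span, compared with 0.464 for TENM4 and 0.00791 for TENM2. The top teneurin was thus 1028 times the lowest per kb of span, although all 3 span over 500 kb. ROBO1 had the highest mean of all members, 6147 over 1170.8 kb (chr3:78597239-79767998, minus strand). Its neighbour ROBO2, 947 kb away on the opposite strand, had a mean of 1442 over 1743.3 kb (chr3:75906695-77649964). Per kb of span ROBO1 was at 5.25 and ROBO2 at 0.827, a ratio of 6.35.

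Among the neural cell adhesion molecules, NCAM1, the carrier of polysialic acid, had a mean normalized count of 2461 (chr11:112961275-113278436, plus strand). NCAM2, known from olfactory axons, had a mean of 10.48. Per kb of span the ratio of NCAM1 to NCAM2 was 404. The DSCAM pair, which acts in neurite self-avoidance, had means of 25.66 for DSCAM and 20.59 for DSCAML1, neither over 50. The order of this pair depended on the length as well, since DSCAML1 was higher per kb of span (0.0528 against 0.0307) and DSCAM, by a narrow margin, per kb of exon (2.98 against 2.93).

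Contactins are attached to the membrane by a lipid anchor and pair with contactin-associated proteins along the axon. CNTN1 had a mean normalized count of 462.0 (chr12:40692439-41072415, plus strand) and, at 1.22 per kb of span, ranked first among the 6 contactins. CNTN4, CNTN2 and CNTN5 followed at 0.0898, 0.0281 and 0.016 per kb of span, and CNTN3 and CNTN6 were at 0.00521 and 0.00407. Per kb of exon CNTN2 was instead the lowest of the 6, at 0.0561, with CNTN5 at 2.37. The means of CNTN3, CNTN6 and CNTN2 were only 1.835, 1.269 and 0.994. CNTN6 and CNTN4 lie 695 kb apart on the same strand of chromosome 3 and differed in mean from 1.269 to 86.1.

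CNTNAP1, the axonal partner of CNTN1 at the paranode, was at 15.8 per kb of span, and it ranked first in its family per kb of span and per kb of exon. Its span is 17.5 kb, of which 97.0% lies within other annotated genes on either strand and 0.0% within genes on the same strand. CNTNAP2, the axonal partner of CNTN2, had a mean of 343.3 but only 0.149 per kb of span. CNTNAP3 stood at 1.38 per kb of span, and this value is uncertain because near-identical copies such as CNTNAP3B lie elsewhere in the genome and may share reads. CNTNAP5 and CNTNAP4 had means of 7.897 and 1.37.

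The IgLON proteins are small immunoglobulin proteins with a lipid anchor. NEGR1 had a mean normalized count of 379.6 (chr1:71395943-72282539, minus strand) and, at 0.428 per kb of span, was first of its family. LSAMP was at 0.046 per kb of span, OPCML at 0.00416 and NTM at 0.00278. NTM and OPCML are neighbours on chromosome 11, separated by 78.2 kb on opposite strands, and both had means under 5. Within 6 of the 11 families the highest listed member exceeded the lowest by over 100 times per kb of span, so levels within a family differed widely by this measure. Spans also differ within families, and some of the lowest members rested on few counts, so the size of these ratios is uncertain.

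Per kb of length, most members stood below the median of protein-coding genes. The members' median was 0.289 per kb of span, against 10.7 for protein-coding genes. Only CADM1, CNTNAP1 and NLGN2 were at or above the latter value, which is 3 of 34 or 8.82%. Per kb of exon the members' median was 8.16 against 82.0, and 7 of 34 were at or above it. Moving from span to exon raised the percentile of 29 members and lowered that of 5. ROBO1, for example, was at the 39.3th percentile per kb of span and at the 92.5th per kb of exon, and TENM3 moved from the 45.3th to the 89.7th. How the reads of a member divide between its introns and exons is not given by the mean, so neither length is the right divisor for all of them.

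Span itself went with the mean only weakly. Across the 34 listed members the Spearman correlation of the mean with the span was 0.09, compared with 0.26 across 17098 protein-coding genes. With exonic length it was 0.35 and with the longest intron 0.16. These are correlations across genes that share the same 4 libraries, and genes are not independent replicates. The correlations of the members and of protein-coding genes were not compared by a test. The 18 members that span over 500 kb ranged in mean from 2.69 to 6147, with a median of 73.8, and 11 of them exceeded 50. The 6 listed members under 50 kb ranged from 0.994 to 632, with a median of 91.2. Both classes therefore held genes near the bottom of the range, and the highest means were found among the long genes. Per kb of span the order was plain, with a median of 7.38 for the short class and 0.0679 for the long class, as division by the span itself would tend to produce.

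**Figure D2:**
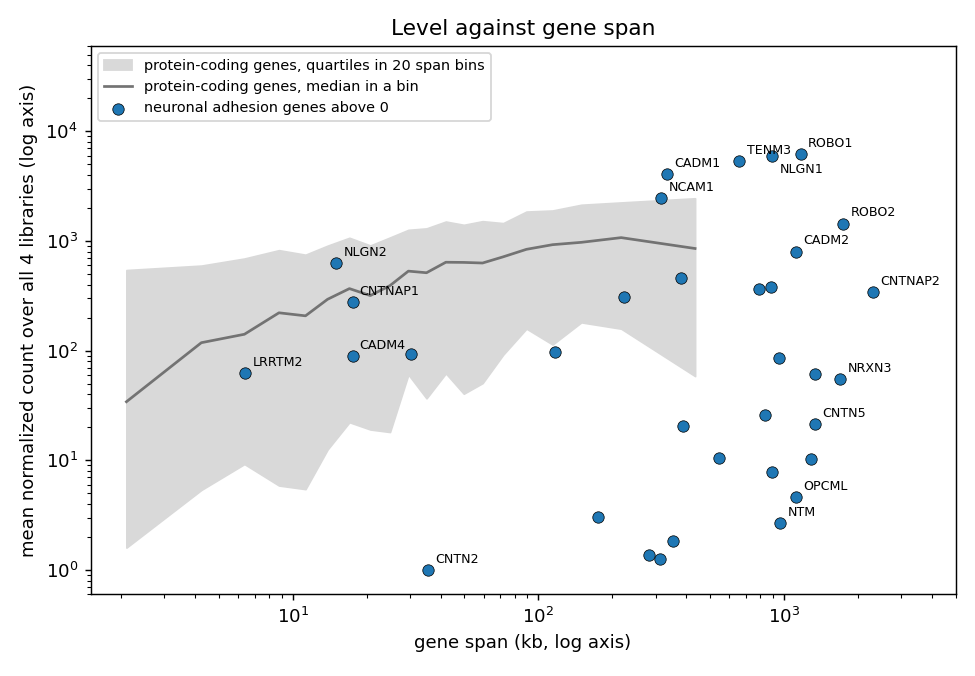
Mean normalized count over all 4 libraries against gene span, both on log axes, for the 34 members above 0 (blue points) and for protein-coding genes sorted into 20 bins of span (grey line, median; band, lower to upper quartile). The band ends at 434.76 kb, the median span of the last bin, so members over 500 kb lie to its right. Those members range from 2.69 for NTM to 6147 for ROBO1, and the 34 members show little trend with span (Spearman 0.09).

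The pooled mean of a weakly covered gene still holds its counts in each library. A single count adds a fixed amount to the mean, which was 0.1864 in library 1, 0.2102 in library 2, 0.2931 in library 3 and 0.3313 in library 4, and the table prints enough digits to solve for 4 whole numbers. These amounts correspond to size factors of 1.341, 1.189, 0.853 and 0.755. Exactly 1 solution was found for each of the 14789 genes whose mean was between 0 and 10. The libraries found this way are numbered by size factor and carry no label, so none was assigned to a fraction. The total count of each library in the table is not known, and the Poisson intervals given here cover counting error only.

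The weakest members rested on very few counts. CNTN2, a contactin of juxtaparanodes, had 3 counts in library 4 and 0 in the other libraries. CNTN6 had 1, 2, 0 and 2 counts in libraries 1 to 4. CNTNAP4 had 4, 0, 1 and 1 counts, in the same order. None of these 3 genes reached 10 counts over all 4 libraries, and the exact two-sided 95% Poisson interval of the 3 CNTN2 counts, 0.82 to 11.62 after normalization, overlapped that of the 0 counts in library 1, which reached 2.75. CNTN3 had 4, 1, 3 and 0 counts. Differences among libraries were not detectable at such counts.

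The neighbours NTM and OPCML were both highest in library 1 and at 0 in library 4. NTM had 9, 2, 2 and 0 counts in libraries 1 to 4. Its normalized Poisson intervals all overlapped, with that of library 1 beginning at 3.07 and that of library 4 ending at 4.89. OPCML had 15, 6, 2 and 0. After division by the size factors the Poisson interval for OPCML in library 1 was 6.26 to 18.45, which overlapped that of library 3, 0.28 to 8.47, and not that of library 4, which ended at 4.89. LRRTM3 had 6, 5, 3 and 0 counts, with all normalized intervals overlapping.

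CNTNAP5 and TENM2 were present in every library. CNTNAP5 had 13, 7, 8 and 5 counts, which corresponded to normalized counts of 9.69, 5.89, 9.38 and 6.63. TENM2 had 20, 13, 7 and 5 counts, or 14.91, 10.93, 8.21 and 6.63 after normalization. The normalized counts of CNTNAP5 differed by less than their counting error, and those of TENM2 declined in the order of the size factors, with overlapping intervals. NCAM2 was more uneven, with 25, 20, 1 and 4 counts and normalized counts of 18.64, 16.82, 1.17 and 5.3. The normalized Poisson intervals for NCAM2 began at 12.07 and 10.27 in libraries 1 and 2, above the end of that for library 3 at 6.53, but overlapped that of library 4, which ended at 13.57.

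**Figure D3:**
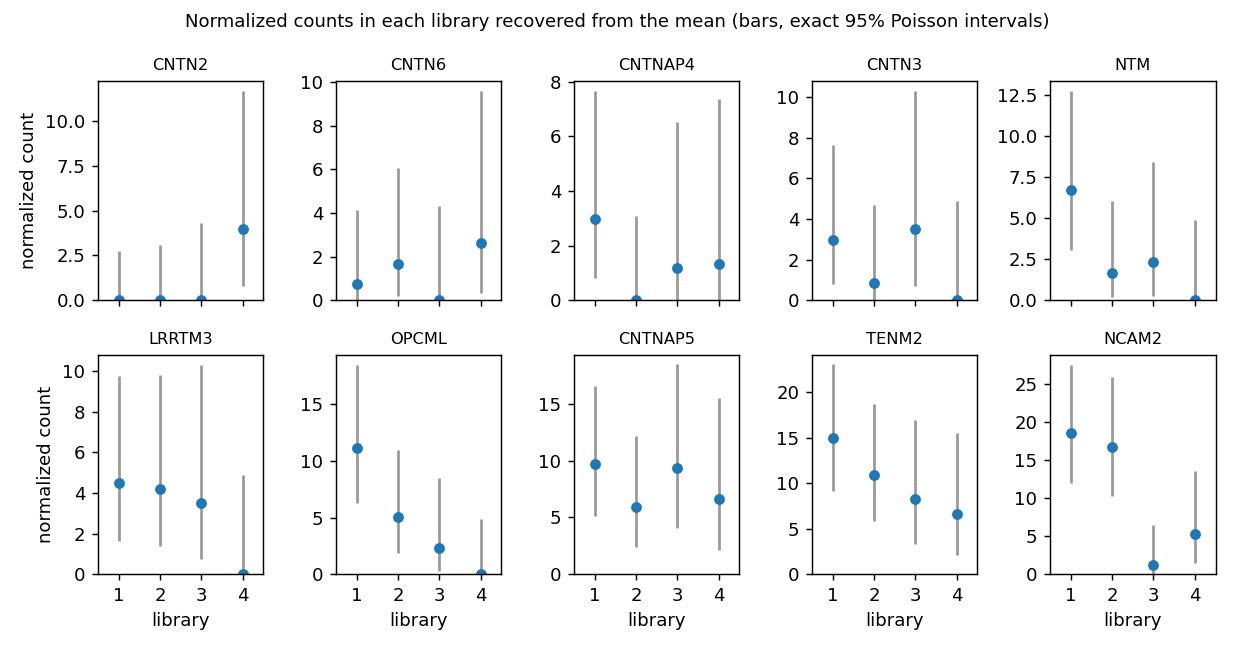
Normalized counts of 10 weakly covered members in each of the 4 unlabelled libraries, solved from the pooled mean (points), with exact 95% Poisson intervals divided by the size factors (bars), which cover counting error only; vertical axes are linear, start at 0 and differ between panels. CNTN2 has counts in library 4 alone, NTM, LRRTM3 and OPCML have none there, and NCAM2 has normalized counts of 18.64 and 16.82 in libraries 1 and 2 against 1.17 and 5.3 in libraries 3 and 4.

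For members with means between 20 and 100 the printed digits left several solutions, because adding 38 counts in library 1 and removing 22, 5 and 3 in libraries 2, 3 and 4 changes the mean by only 4.6e-09. Those members are therefore given as ranges. NRXN3 allowed 90 to 166 counts in library 1, 105 to 149 in library 2, 2 to 12 in library 3 and 3 to 9 in library 4. LSAMP allowed 57 to 133, 147 to 191, 14 to 24 and 5 to 11. Both genes span over 1000 kb and had lower normalized counts in libraries 3 and 4 than in libraries 1 and 2 under every solution at the tolerance used, with LSAMP in library 1 at 42.5 or more and in library 3 at 28.1 or less. At a tolerance 2 times as wide LSAMP also allowed 19 counts in library 1 with 29 in library 3. CNTN4 had a single solution of 180, 237, 7 and 2 counts at the tolerance used, although the wider tolerance also allowed 104, 281, 17 and 8.

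The short genes LRRTM2 and CADM4 ran the other way. LRRTM2 allowed normalized counts of 18.6 to 75.3 in library 1, 12.6 to 49.6 in library 2, 90.3 to 102.0 in library 3 and 71.6 to 79.5 in library 4. CADM4 allowed 23.1 to 79.8, 41.2 to 78.2, 127.8 to 139.5 and 106.0 to 114.0. Library 3 was thus the highest for both genes at this tolerance, whereas library 1 and library 4 overlapped for LRRTM2. NLGN3 and NRXN2, which span 30.4 kb and 117.0 kb, had their lowest range in library 4 at this tolerance, at 47.7 to 55.7 and 50.4 to 62.3. At a tolerance 2 times as wide NLGN3 also allowed 56 counts in library 1 with 48 in library 4. NRXN2 likewise allowed 54 with 50. In these solutions library 1 lies below library 4 after normalization. DSCAM, DSCAML1 and CNTN5 had at most 15.2 normalized counts in libraries 3 and 4, and their ranges in libraries 1 and 2 were too wide to order these 2 libraries, apart from reaching 67.3 at most. Members with means above 100, including CADM2 and all of the highest, could not be resolved by library.

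**Figure D4:**
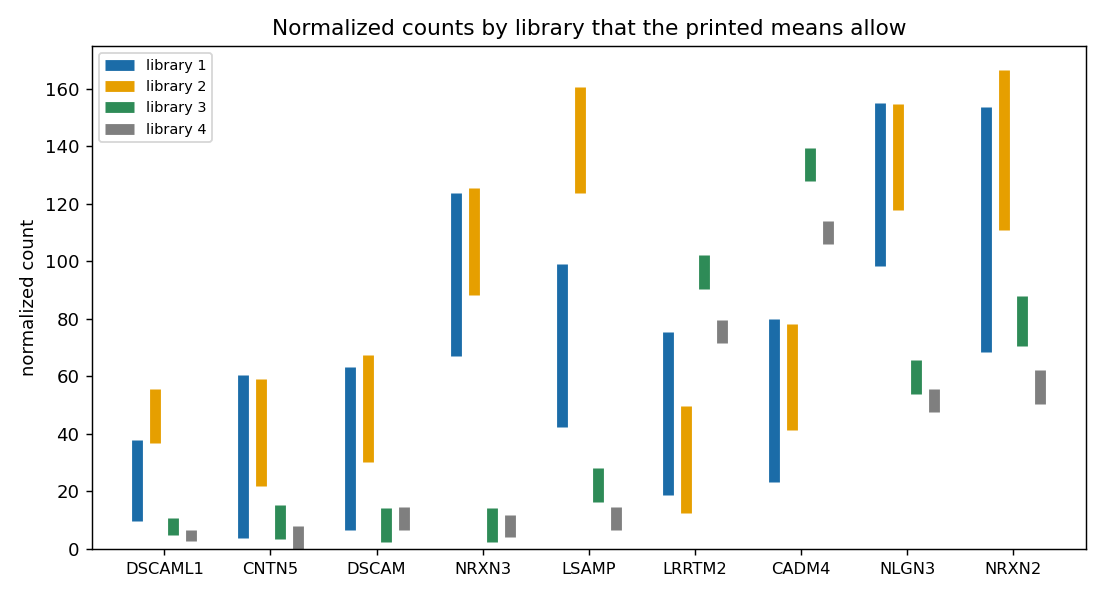
Normalized counts that the printed mean allows in each of the 4 unlabelled libraries (coloured bars, from the lowest to the highest solution) for the 9 members with several solutions; the vertical axis is linear and starts at 0. LRRTM2 and CADM4 are highest in library 3, at 90.3 to 102.0 and 127.8 to 139.5, whereas NRXN3 and LSAMP are at most 28.1 in libraries 3 and 4.

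A list of 48 other synaptic and neuronal adhesion genes was set beside the members. All 48 were in the table, 26 of them (54.2%) had a mean over 50, and ROBO4, IGLON5 and LRRTM1 were listed at 0. Their median mean was 111, their median span 106 kb and their median level 1.55 per kb of span. The 5 with the highest means were SLIT2, a ligand of the roundabout receptors, at 9710, PTPRF at 9237, the latrophilins ADGRL3 at 6414 and ADGRL2 at 3698, and PTPRS at 2475. PTPRF and PTPRS are receptor phosphatases of the presynaptic membrane, and latrophilins are the partners of teneurins.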

How the data were processed

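RNA from nuclear and cytoplasmic fractions of crosslinked HEK293T cells (2 libraries each) was made into libraries from 400 ng with a stranded, ribosome-depleted kit and sequenced as 100 nt read pairs. The authors aligned reads to hg38 with STAR and counted them over exons and introns with featureCounts 2.0.2 (minimum overlap 20 nt). Their annotation extended GENCODE 34 with genes only NCBI lists, and stretches shared by several genes and readthrough transcripts were taken out. The deposited table has 51740 lines (51699 identifiers, 19221 at 0). Its signal column is the authors' DESeq2 mean of normalized counts over all 4 libraries. Its other columns hold the authors' own comparison of the fractions (fold changes, errors, statistics and p-values) and were not used, so no fraction was compared.

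Lengths came from GENCODE 44, which matched 98.9% of genes above 0, and may differ from the lengths the authors counted. Span is first to last base, exon length the union of exons, and percentiles are among protein-coding genes above 0. Whole counts per library were solved from means up to 100, within 1.3 times the rounding error of the last printed digit plus a small term proportional to the mean, with the amount per count fitted on 6000 genes. By density, 0.000578 accidental solutions are expected at a mean of 10 and 5.78 at 100. The solver was tested on simulated data. Its tolerance was set after values had been seen. The study gives read totals for the fraction libraries only as a minimum and an average, and the total count of each library in the table is not known.

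Members and lists were chosen with earlier results of these data known. By rule, full values were given for the 10 highest means, means of at most 2 and CADM2, and the 5 highest of the related list; other members were named after their values were seen. Python 3.11.15, numpy 2.4.6, pandas 2.3.3 and SciPy 1.17.1 were used.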

Additional observations from a re-analysis of the deposited data

How the results depend on the processing

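The number of members over the minimum followed the minimum chosen. It was 34 for any value above 0, 26 for at least 10 and 8 for over 500, in place of 21. The share of listed members at or above the protein-coding median per kb was 8.82% by span, 20.6% by exons, 9.38% by span not shared on either strand (of 32, since LRRTM2 and LRRTM3 have none left), 8.82% by span not shared on the same strand, chosen after seeing the data, and 2.94% against genes with a mean over 50, that is, from 1 to 7 members over these lengths and medians. The correlation of the mean with length ranged from 0.08 to 0.35 over the lengths and filters tried. The number of members with 1 solution was 11, and 10 and 15 with a tolerance 2 times as wide and as narrow. The wider tolerance added solutions along the same relation, up to 145 counts of CADM4 in library 1, at which library 1 no longer lies below library 4 after normalization. No paired analysis was possible because no value in the table belongs to 1 labelled library, and for the same reason the normalization, low-count filter and left-out replicate planned for the fractions were not run. Depth limits the members with means under about 10, whose counts per library are 25 or fewer.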

Other observations

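Over 4983 genes with means of 2 to 10 and a single solution, the Spearman correlation of normalized counts across genes was 0.69 between libraries 1 and 2 and 0.57 between libraries 3 and 4, and lay between -0.29 and -0.26 for the other pairs. Keeping only genes within a narrow range of the mean can lower such correlations, and by how much was not tested. Genes are not independent replicates, and no label is attached to these libraries. These correlations were looked at after the counts had been solved. The ratio of observed to expected CpG in the promoter window, from 250 bases before to 50 after the start in RefSeq, had a median of 0.72 in the 29 members with an entry and 0.83 in protein-coding genes. Its Spearman correlation with the mean was 0.13 across 28 members and 0.51 across 13528 protein-coding genes.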
